A study of Mus musculus with 4 samples.

Results

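Cdkn1c and the maternally expressed genes around it on distal mouse chromosome 7 were examined in embryonic stem cells (ESCs) with 1 or 2 maternal genomes. The 9 genes were taken by name: Cdkn1c, Phlda2, Kcnq1, Slc22a18, Ascl2, Tssc4, Cd81, Osbpl5 and Nap1l4. They were found on the arrays through the transcript accession of each probe, which gave 10 probes of 39409 and 9 of 19748 gene symbols. Nap1l4 had 2 probes and each other gene had 1.

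The samples were 2 parthenogenetic haploid ESC lines and 2 parthenogenetic diploid ESC lines, all female, each on its own 1-colour Agilent array. The labels give no strain, age, culture medium, feeder layer or treatment. Parthenogenetic cells derive from an unfertilised egg, so all 4 lines carry maternal chromosomes only and the comparison has no paternal genome on either side. Haploid ESCs tend to become diploid in culture, and the share of cells that were haploid when RNA was taken is not given in the labels.

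Genes of this cluster are imprinted, which means that the copy inherited from the mother is used and the paternal copy is silenced, in some cases only in the placenta. Silencing on the paternal chromosome is tied to Kcnq1ot1, a long non-coding RNA that starts within Kcnq1 and is read in the opposite direction. On the maternal chromosome the start of Kcnq1ot1 is methylated and the RNA is not made, so the protein-coding genes nearby can be used. Cdkn1c encodes p57Kip2, an inhibitor of cyclin-dependent kinases (CDKs) that restrains the cell cycle, and Phlda2 restrains growth of the placenta.

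Signals are given as log2 of the processed signal minus the 75th percentile of the same array, so that 0 is the level of the 75th percentile. A difference is the haploid mean minus the diploid mean on this scale, its error is the standard error (SE) from limma, and n = 2 arrays per group throughout. Equal amounts of RNA were labelled and each array was scaled on itself, so signal per cell was not measured. In bulk RNA, fewer cells that use a gene and less RNA per cell cannot be told apart. The arrays had 53.6% to 65.0% of probes well above background, the scanner software's call that a spot stands clear of its surroundings, and 75th percentiles of 526.4 to 907.1 intensity units. The ESC factor gene Pou5f1 read 3.38 and 3.33 in haploid cells and 3.26 and 3.51 in diploid cells, and all 10 ESC markers examined were well above background on all 4 arrays.

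Methylation at the start of Kcnq1ot1 belongs to the imprint described above. That start and, for comparison, those of Slc22a18, Ascl2 and Phlda2 are shown with CG dinucleotides in capitals. Each is 250 bases before to 50 bases after a RefSeq start (GRCm38.p6), written 5′ to 3′ in the direction of transcription. Kcnq1ot1 (chr7:143296498-143296797, minus strand) is the silencing RNA. Slc22a18 (chr7:143473539-143473838, plus strand) and Ascl2 (chr7:142969215-142969514, minus strand) had the largest differences among the members with a listed start, and Phlda2 (chr7:143502475-143502774, minus strand) had the smallest.
Kcnq1ot1: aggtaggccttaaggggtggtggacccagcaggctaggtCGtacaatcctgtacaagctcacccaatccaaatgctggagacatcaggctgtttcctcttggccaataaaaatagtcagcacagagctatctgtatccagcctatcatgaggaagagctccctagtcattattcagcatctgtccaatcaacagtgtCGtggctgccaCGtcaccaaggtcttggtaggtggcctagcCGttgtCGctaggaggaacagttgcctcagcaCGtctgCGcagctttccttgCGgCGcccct
Slc22a18: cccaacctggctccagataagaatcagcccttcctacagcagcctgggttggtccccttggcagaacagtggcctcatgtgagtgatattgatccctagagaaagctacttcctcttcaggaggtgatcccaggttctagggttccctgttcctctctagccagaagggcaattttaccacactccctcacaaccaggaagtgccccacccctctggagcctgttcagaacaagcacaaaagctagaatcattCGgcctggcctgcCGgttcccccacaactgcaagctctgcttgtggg
Ascl2: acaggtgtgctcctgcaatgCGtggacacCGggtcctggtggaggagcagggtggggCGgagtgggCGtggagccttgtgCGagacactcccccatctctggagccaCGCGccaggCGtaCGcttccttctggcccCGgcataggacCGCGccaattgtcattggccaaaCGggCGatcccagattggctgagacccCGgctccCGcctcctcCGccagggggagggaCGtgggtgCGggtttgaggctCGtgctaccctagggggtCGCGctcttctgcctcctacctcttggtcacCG
Phlda2: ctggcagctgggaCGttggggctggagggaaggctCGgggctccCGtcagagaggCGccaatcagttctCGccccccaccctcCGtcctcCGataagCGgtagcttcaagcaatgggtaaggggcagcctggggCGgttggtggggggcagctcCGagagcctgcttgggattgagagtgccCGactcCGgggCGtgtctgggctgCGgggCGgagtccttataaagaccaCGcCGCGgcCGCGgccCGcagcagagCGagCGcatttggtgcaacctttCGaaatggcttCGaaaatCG

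These starts differed in CG content. The Phlda2 window held 26 CG dinucleotides and the Ascl2 window 23, against a median of 7.0 over 32851 RefSeq windows of the same length. The Kcnq1ot1 window had 9 and the Slc22a18 window 2, and 14.1% of all windows held fewer than Slc22a18. Starts of Cd81 and Tssc4 held 23 each and the 3 listed starts of Osbpl5 held 16, 1 and 21. Of the 9 genes, 6 had a listed start, and Cdkn1c, Kcnq1 and Nap1l4 did not. Searched on both strands, CCAAT, the box read by the factor NF-Y, stood 3 times in the Kcnq1ot1 window, 3 times in the Ascl2 window and 1 time each in those of Tssc4, Phlda2 and 1 Osbpl5 start, and 37.4% of all windows held it. GGGCGG, a GC box, stood in the windows of Ascl2, Phlda2, Cd81 and 1 Osbpl5 start, and in 35.7% of all windows. TATAAA, the TATA box, stood in those of Phlda2 and Cd81, and in 13.6% of all windows. TGCCGC, the hexamer bound by the imprint-protecting factor ZFP57, was found in 1 Osbpl5 window among these, and in 11.6% of all windows. No match of one of these motifs overlapped a match of another in the member and Kcnq1ot1 windows, although TGCCGC and GGGCGG each hold a CG and so add to the CG counts. No methylation was measured here.

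Cdkn1c was the member with the smallest p. Its probe read -0.68 and -0.48 in the haploid lines, against -1.71 and -1.80 in the diploid lines. Both haploid arrays lay above both diploid arrays, and the gap between groups was larger than the spread within either. The difference was 1.17 ± 0.18 (SE), or 2.25-fold with a 95% interval of 1.67 to 3.03. It did not pass the threshold over all probes (limma adjusted p = 0.0921), where it ranked 103 of 21783 by p. The processed signals behind it were 329 and 395.4 intensity units in haploid cells and 188.9 and 261.3 in diploid cells, so both haploid arrays also lay above both diploid arrays before scaling.

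The Cdkn1c difference kept its direction in all 14 alternatives and passed in 4 of them. Its limma adjusted p was 0.000576 with a prior variance that follows signal and is robust to outlying probes, 0.0411 among probes well above background on all 4 arrays, 0.0245 with filtered normexp (normexp background correction without spots of high local background, a setting added after seeing the data), and 0.0447 without haploid replicate 1. With 1 array left out the difference ran from 1.07 to 1.27. With unfiltered normexp, the same correction with every spot kept, it was 0.48 (limma adjusted p = 0.764). The median difference of all probes tested was -0.16 in that setting and 0.01 as reported.

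Ascl2 and Phlda2, both known for their part in the placenta, differed in pattern. Ascl2, a transcription factor that trophoblast progenitors need, read 1.12 and 1.49 in haploid cells, against 0.40 and 0.57 in diploid cells. The groups did not overlap, and the difference was 0.82 ± 0.20, or 1.76-fold with an interval of 1.26 to 2.47 (limma adjusted p = 0.229). It passed with the signal-following robust prior (limma adjusted p = 0.00484). Phlda2 read -1.66 and -0.77 in haploid cells, against -1.50 and -1.01 in diploid cells. Here the diploid values lay between the haploid ones, and replicate 2 read higher than replicate 1 in both groups. The difference was 0.04 ± 0.33 (limma adjusted p = 0.973), with an interval of -0.75 to 0.83, so changes of 0.594-fold to 1.77-fold are within its error. Its sign turned without haploid replicate 2 (-0.41), without diploid replicate 1 (-0.20) and with unfiltered normexp (-0.18), and with 1 array left out it reached 0.48.

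The members that move substances across membranes or between them were Slc22a18, Kcnq1 and Osbpl5. Slc22a18, a transporter of the organic cation family, read -0.97 and 0.75 in haploid cells, against -1.12 and -1.83 in diploid cells. Haploid replicate 2 stood 1.72 above haploid replicate 1, and haploid replicate 1 lay only just above the higher diploid array. The difference of 1.36 ± 0.55 (limma adjusted p = 0.424) was the largest of the members and had the widest error, with an interval of 1.03-fold to 6.37-fold. It was 0.50 without haploid replicate 2 and 2.22 without haploid replicate 1, where it passed (limma adjusted p = 0.0124). Unfiltered normexp gave 0.67.

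Osbpl5, which transfers lipids at contacts of the endoplasmic reticulum with other membranes, read -1.39 and -1.80 in haploid cells, against -2.05 and -2.48 in diploid cells. Both haploid arrays lay above both diploid arrays, with a gap between the nearest of them smaller than the spread within either group. The difference was 0.67 ± 0.23, or 1.59-fold with an interval of 1.07 to 2.34 (limma adjusted p = 0.363), and -0.18 with unfiltered normexp. Kcnq1, a voltage-gated potassium channel of heart and epithelia, did not reach the call of well above background on any array and was not tested. Its processed signals were 4.55 and 3.747 intensity units in haploid cells and 5.287 and 4.494 in diploid cells.

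Cd81, Tssc4 and Nap1l4 are used in most tissues, and their values lay close together. Cd81, a tetraspanin of the cell surface, read 5.49 and 5.26 in haploid cells, against 5.13 and 5.19 in diploid cells, a difference of 0.22 ± 0.18 (limma adjusted p = 0.653). Tssc4, which takes part in assembly of the splicing machinery, read 2.78 and 2.69 in haploid cells, against 2.63 and 2.52 in diploid cells, a difference of 0.16 ± 0.17 (limma adjusted p = 0.735). Their groups did not overlap, but the intervals reached from 0.860-fold to 1.57-fold for Cd81 and from 0.838-fold to 1.49-fold for Tssc4. Under quantile normalization the differences were 0.06 and 0.09, and with unfiltered normexp 0.69 and 0.48.

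Nap1l4, a histone chaperone, was the member with a difference below 0. Its brighter probe read 0.69 and 0.77 in haploid cells, against 0.99 and 1.06 in diploid cells, a difference of -0.29 ± 0.17 (limma adjusted p = 0.543). Its other probe read -1.63 and -1.49 in haploid cells, against -1.57 and -1.53 in diploid cells, a difference of -0.01 ± 0.17 (limma adjusted p = 0.987). Both probes are annotated with 1 transcript accession. The groups did not overlap at the first probe and did at the second, where the intervals were 0.614-fold to 1.08-fold and 0.746-fold to 1.32-fold.

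**Figure D1:**
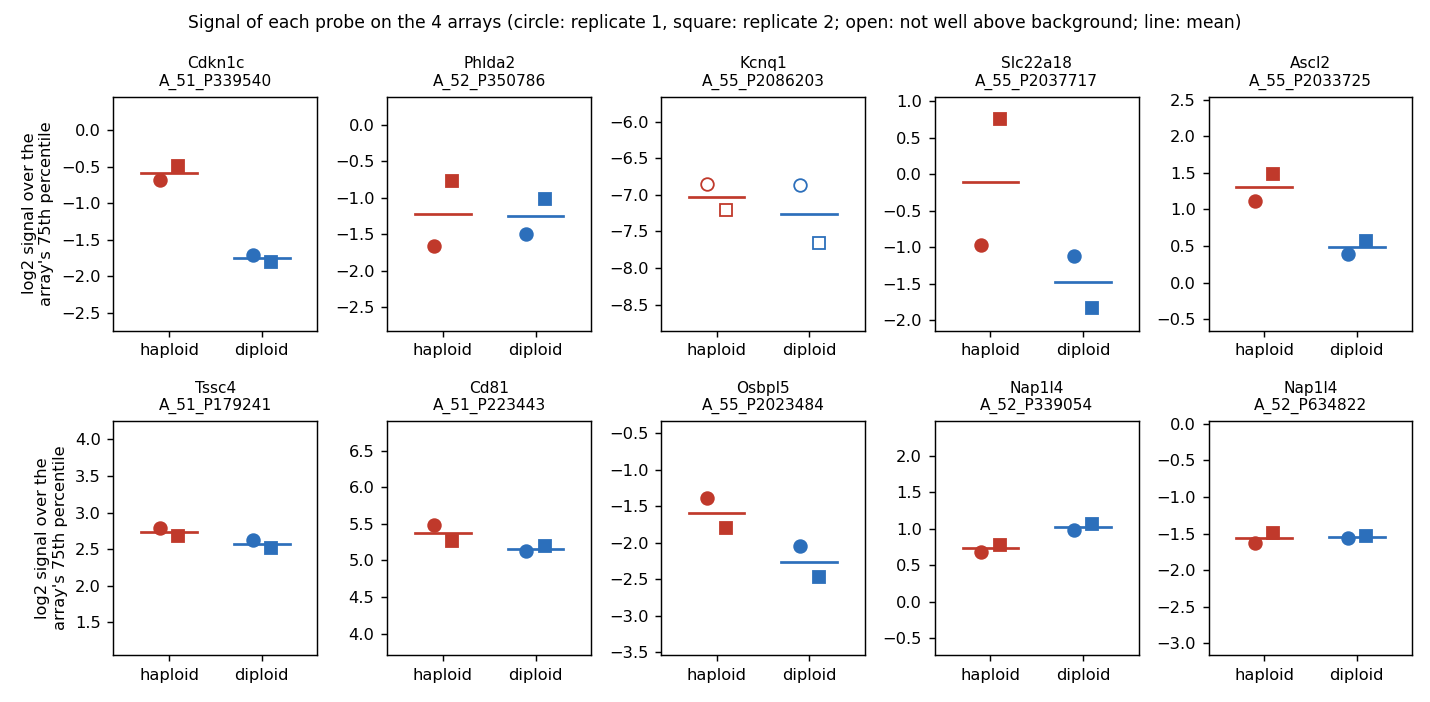
Log2 signal over the array's 75th percentile (vertical axis, the same span in every panel) for each of the 10 probes, haploid left and diploid right. Circles are replicate 1, squares replicate 2, open symbols are not well above background and lines are group means; Cdkn1c shows 2 well separated groups, Slc22a18 has 1 high haploid array at 0.75, and Phlda2 overlaps.

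No member passed the threshold. Of 9 member probes that could be tested, 0 passed limma at an adjusted p of 0.05, where 0.161% of all 21783 probes tested did (35 probes). With the signal-following robust prior 2 of the 9 passed (Cdkn1c and Ascl2), beside 2.56% of all probes. At an unadjusted p of 0.05, 4 of the 9 passed (Cdkn1c, Ascl2, Osbpl5 and Slc22a18), beside 11.4% of all probes. Taking the brightest probe of each gene, 7 of 8 tested members lay above 0 with a median difference of 0.44 (5 of 8 and 0.48 with unfiltered normexp), and 53.2% of all 17962 genes tested lay above 0 with a median of 0.02. The haploid values lay wholly above the diploid values for 6 of the 8 and wholly below for 1, beside 26.0% and 20.9% of all genes. Counted by probe these were 6 and 1 of 9, beside 24.8% and 21.4% of all probes. Before scaling, the processed signals of the groups overlapped for Ascl2, Slc22a18, Osbpl5 and Cd81. Those of Tssc4 were then lower in haploid cells, at 3626 and 3556 intensity units against 3818 and 5207 in diploid cells. The members were chosen with results of these data known, so these counts describe the 8 genes and carry no test.

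**Figure D2:**
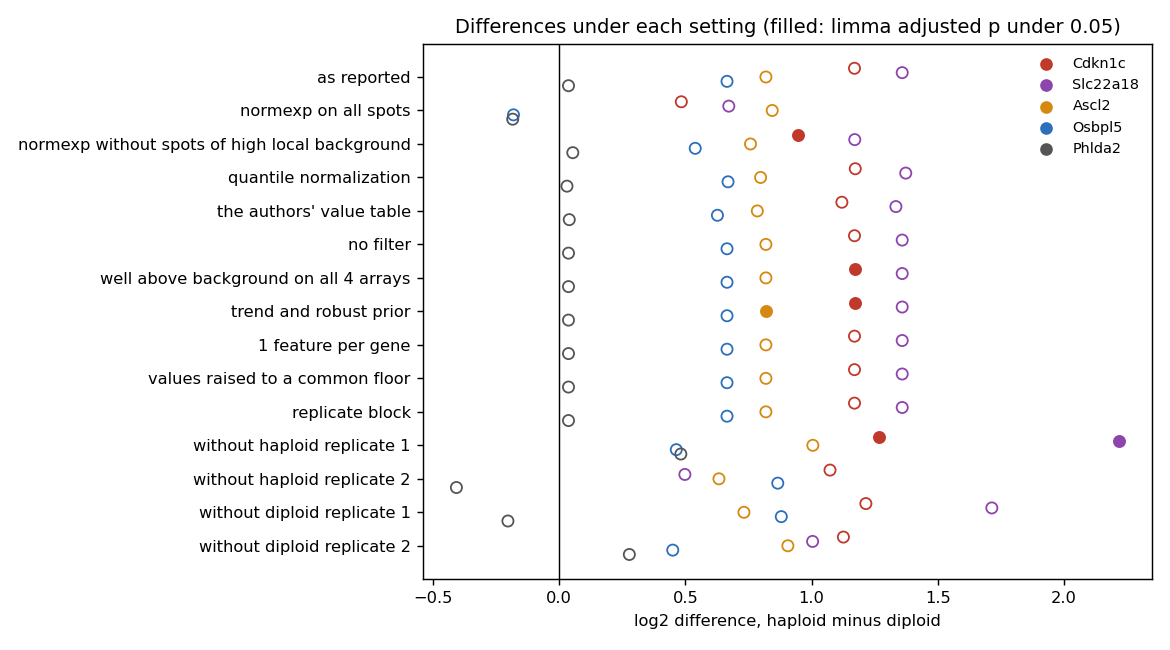
Log2 difference, haploid minus diploid (horizontal axis), of 5 members under each setting (rows; the 2 rows of normexp are the unfiltered and, under it, the filtered one). Filled symbols passed a limma adjusted p of 0.05; Cdkn1c lay between 0.48 and 1.27, whereas Slc22a18 ran from 0.50 to 2.22 and Phlda2 crossed 0.

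Kcnq1ot1, the RNA tied to silencing of the members, gave values of another pattern. Its brighter probe was well above background on all 4 arrays, with processed signals of 46.45 to 154.3 intensity units. In the background given above the RNA is not made from maternal chromosomes, which are all that these lines carry. The source of this signal was not tested. The probe read -2.83 and -3.57 in haploid cells, against -3.04 and -2.56 in diploid cells, a difference of -0.40 ± 0.30 (limma adjusted p = 0.62). The groups overlapped, and the interval of 0.459-fold to 1.25-fold spans 1-fold. The other Kcnq1ot1 probe stayed below that call on all 4 arrays. Igf2, a paternally expressed growth factor gene beside the cluster, stayed below it on all 4 as well, with processed signals of 4.52 and 3.751 in haploid cells and 12.9 and 15.11 in diploid cells. No probe could be matched to H19, which is not analysed here.

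In gene order along the chromosome, higher and lower differences stood next to each other. Of 15 protein-coding genes that start between Ascl2 and Osbpl5, 8 are tested members and 4 are tested neighbours. Among those neighbours Tspan32, a tetraspanin gene of blood cells next to Ascl2, read -1.11 and -1.05 in haploid cells, against -1.78 and -2.10 in diploid cells. Its difference was 0.86 ± 0.19 (limma adjusted p = 0.196), with 0.49 at another probe. It passed with the signal-following robust prior (limma adjusted p = 0.0217) and was 0.016 with unfiltered normexp. Cars, the cysteinyl-tRNA synthetase gene, differed by 0.25 ± 0.20, and the decoy receptor genes Tnfrsf22 and Tnfrsf23 by 0.22 ± 0.22 and 0.14 ± 0.17, with -0.29 ± 0.25 at another Tnfrsf22 probe. Ascl2 and Tspan32 stood side by side with differences of 0.82 and 0.86, as did Cdkn1c and Slc22a18 with 1.17 and 1.36, while Phlda2 and Nap1l4, the next genes after Slc22a18, lay near or below 0. With unfiltered normexp the first pair read 0.84 and 0.016 and the second 0.48 and 0.67.

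Over the longer neighbourhood, from Dusp8 to Ano1, 19 of 27 listed genes other than members were tested and 0 passed (0.167% of all genes tested did). Of these, 13 lay above 0 with a median of 0.11 (-0.35 with unfiltered normexp, 0.058 without haploid replicate 1 and 0.066 without diploid replicate 2). Ano1, a chloride channel gene, fell short of well above background on both haploid arrays and was at least 1.71-fold lower there against each array's own floor (limma adjusted p = 0.0921). Dusp8, a phosphatase gene for stress kinases, fell short on both diploid arrays and was at least 2.13-fold higher in haploid cells against those floors (limma adjusted p = 0.229). Such a bound sets the brighter group's mean against the dimmer arrays, each raised to its own lowest signal well above background, and its p tests the measured difference. The bound depends on that floor: with all arrays raised to 1 common floor, the highest of the 4, the log2 differences were -0.57 for Ano1 and 0.70 for Dusp8. Filtered normexp gave -0.18 for Ano1 and 0.55 for Dusp8, and unfiltered normexp -0.71 for Dusp8. Dusp8 was 0.89 without haploid replicate 1.

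**Figure D3:**
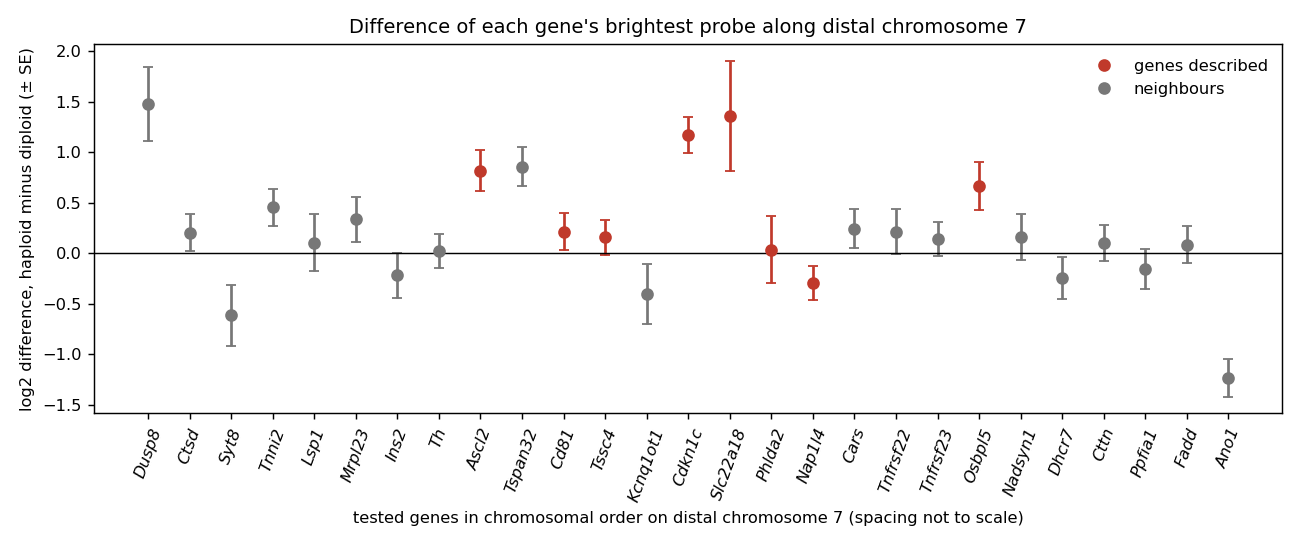
Log2 difference, haploid minus diploid, with SE (vertical axis) for the brightest probe of each tested gene in order along distal chromosome 7 (horizontal axis, spacing not to scale). Genes described are red and neighbours grey. Ascl2 with Tspan32 and Cdkn1c with Slc22a18 lie above 0.5, as do Dusp8 (1.47) and Osbpl5 (0.67), each apart from these. Kcnq1ot1 lies at -0.40 between Tssc4 and Cdkn1c.

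Imprinted genes elsewhere in the genome gave no common direction. Of 14 tested maternally expressed genes outside the cluster, 5 lay above 0 and 9 below, with a median of -0.09 (0.10 with unfiltered normexp). The neuronal scaffold gene Ppp1r9a differed by -0.71 ± 0.18 (limma adjusted p = 0.23), the decarboxylase gene Ddc by 0.47 ± 0.20 and the lipid flippase gene Atp10a by -1.36 ± 0.61. Atp10a rested on diploid replicate 1, with -0.39 without it and -2.32 without diploid replicate 2. Of 21 tested paternally expressed genes, 12 lay above 0 with a median of 0.25 (-0.35 with unfiltered normexp, 0.137 without haploid replicate 1 and 0.147 without diploid replicate 1). Plagl1, a zinc finger transcription factor gene, differed by 1.36 ± 0.20 (limma adjusted p = 0.0829), the non-coding RNA gene Peg13 by 0.90 ± 0.20 and the amino acid transporter gene Slc38a4 by -0.65 ± 0.20. None of either list passed, beside 0.167% of all genes tested.

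Genes that keep imprints or silence the cluster were examined because the members depend on them. Of 19 tested, 6 lay above 0 and 13 below, with a median of -0.13 (0.16 with unfiltered normexp). None of them passed, beside 0.167% of all genes tested. Dnmt3l, a cofactor of DNA methylation in germ cells, differed by 0.42 ± 0.18, the histone demethylase gene Kdm1b by -0.38 ± 0.17 and the imprint-protecting factor gene Zfp445 by -0.53 ± 0.24 (limma adjusted p of 0.453 to 0.461).

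Other CDK inhibitors and their targets were set beside Cdkn1c. None of 12 tested genes for CDK inhibitors, G1 cyclins and their kinases passed, beside 0.167% of all genes tested. Of the 12, 8 lay above 0 with a median of 0.17. That median was 0.27 without diploid replicate 1, 0.079 without diploid replicate 2 and 0.070 with quantile normalization. Cdkn1a, the p21 gene and a close relative of Cdkn1c, differed by 0.42 ± 0.17 (limma adjusted p = 0.427) at its brightest probe and by 1.30 ± 0.17 (limma adjusted p = 0.0718) at its other. Cdkn2a, which encodes p16 and p19ARF, differed by 0.48 ± 0.19, and Ccnd1, the cyclin D1 gene, by -0.67 ± 0.21. Cdkn1b, the other relative, differed by -0.12 ± 0.18. Among 19 tested relatives of all members, 12 lay above 0 with a median of 0.18 (-0.008 with unfiltered normexp, 0.113 without haploid replicate 1). Again 0 passed, beside 0.167% of all genes tested. The tetraspanin gene Cd82 differed by 1.24 ± 0.22 (limma adjusted p = 0.134) and Osbpl3 by -0.81 ± 0.18. Their relatives among the members, Cd81 and Osbpl5, differed by 0.22 and 0.67.

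Markers of other cell types lay mostly above 0, as the members did. For fibroblasts, which serve as feeder cells for ESCs, 16 of 22 tested markers lay above 0, with a median of 0.48 (-0.15 with unfiltered normexp). Their summed level, in units of each array's 75th percentile, was 153 and 149 in haploid cells and 115 and 96.5 in diploid cells. Most of each sum came from Sparc, by far the brightest of these markers. It read 6.89 and 6.91 in haploid cells, against 6.54 and 6.28 in diploid cells. Ccl2, a chemokine gene, passed (1.59 ± 0.18, limma adjusted p = 0.049), while Thbs1 and Fbln5 differed by 1.39 ± 0.26 and 1.03 ± 0.23 and did not. The Ccl2 call was lost in 9 of 14 alternatives, among them the omission of either diploid array (limma adjusted p of 0.291 and 0.292) and unfiltered normexp (0.59, limma adjusted p = 0.764). In this list 6 markers lay below 0. The haploid values lay wholly above the diploid values for 15 of the 22 and wholly below for 2, beside 26.0% and 20.9% of all genes. The 2 were Cdh11 and Twist1, which differed by -0.71 and -0.23 (limma adjusted p of 0.25 and 0.636). The fibroblast markers Pdgfra and Prrx1 fell short of well above background on all 4 arrays. Pdgfrb reached that call on 1 haploid array only and was not tested.

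For trophectoderm and trophoblast, the lineage in which Ascl2 and Phlda2 are best known, 11 of 15 tested markers lay above 0, with a median of 0.39. None of the 15 passed, beside 0.167% of all genes tested. The median was 0.007 with unfiltered normexp, 0.25 with filtered normexp, 0.16 without diploid replicate 1 and 0.60 without diploid replicate 2. Their summed level was 35.5 and 34.9 in haploid cells and 27.8 and 28.3 in diploid cells. Krt18, Krt8 and Gata3 differed by 1.23 ± 0.17, 1.15 ± 0.23 and 1.02 ± 0.19 (limma adjusted p of 0.0728 to 0.17). The haploid values lay wholly above the diploid values in 7 of the 15 and wholly below in 3. Of all genes tested, 26.0% lay wholly above and 20.9% wholly below. The 3 lower ones, Bmp4, Eomes and Ets2, differed by -0.86 ± 0.33, -0.43 ± 0.17 and -0.41 ± 0.18 (limma adjusted p of 0.395 to 0.453). The defining markers Elf5, Tpbpa and Plac1 fell short of well above background on all 4 arrays. Cdx2 reached that call on 1 diploid array only and was not tested. Its processed signals were 17.23 and 4.586 intensity units in haploid cells and 5.263 and 183.1 in diploid cells. Hand1 reached the call on 1 haploid array only and Prl3d1 on 1 diploid array only, and neither was tested. Primitive endoderm markers had 6 of 8 above 0, a median of 0.06 (-0.63 with unfiltered normexp) and summed levels of 6.12 and 6.15 in haploid cells and 5.26 and 5.11 in diploid cells. In that list Amn differed by 0.78 ± 0.25 and Gata4 by -0.77 ± 0.28, and Cubn, short of well above background on both diploid arrays, was at least 1.78-fold higher against each array's own floor. Its log2 difference was 0.44 with the common floor and -0.80 with unfiltered normexp. ESC markers had a median of 0.05 (-0.02 with quantile normalization, 0.38 with unfiltered normexp), with Tdgf1 at -0.51 ± 0.19, Nanog at -0.37 ± 0.18 and Zfp42 at 0.34 ± 0.17. The summed level of the ESC markers was higher in haploid cells too, at 223 and 216 against 210 and 185 in diploid cells. With unfiltered normexp the medians were 0.48 for the members, 0.007 for the trophoblast list and -0.15 for the fibroblast list. In that setting the median corrected intensity was 1277 on diploid replicate 2, against 106.5 to 116.3 on the other arrays. With filtered normexp the medians of these lists were 0.37, 0.25 and 0.41 in the same order. The part of these cell types in the member differences was not tested.

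**Figure D4:**
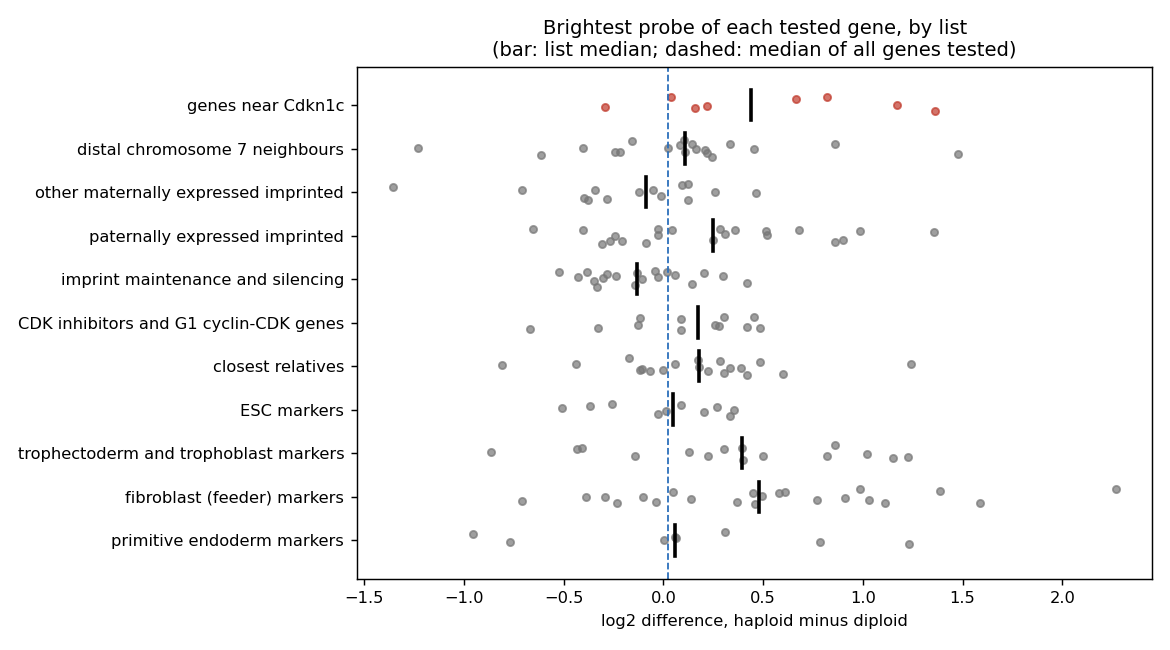
Log2 difference, haploid minus diploid (horizontal axis), for the brightest probe of each tested gene, grouped by list (rows). Black bars are list medians and the dashed line is the median of all genes tested, 0.02; the 8 genes near Cdkn1c have a median of 0.44, beside 0.39 for the trophoblast and 0.48 for the fibroblast list.

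The genes whose profile over the 4 arrays lay nearest to Cdkn1c were on no list. By Euclidean distance between log2 profiles, each centred on its own mean, over 13039 other genes, they were the lens crystallin gene Cryga (distance 0.07), the transcription cofactor gene Lmo1 (0.07), the mitochondrial carrier gene Sfxn3 (0.08), the T cell receptor subunit gene Cd3g (0.09) and the haem exporter relative Flvcr2 (0.14). Their differences ran from 1.12 (Flvcr2) to 1.24 (Cd3g), and 0 of the 5 passed limma (adjusted p of 0.0766 to 0.0971). The profiles hold the group difference, so values close to those of Cdkn1c follow from how these genes were picked. Among the members Ascl2 came nearest at 0.42, the 140th of 13039, followed by Osbpl5 at 0.70. Slc22a18 was at 1.18 and Phlda2 at 1.30, while Nap1l4 at 1.47 and Kcnq1ot1 at 1.76 were farthest. With 4 arrays these distances are a description only.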

How the data were processed

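Gene expression was measured on 1 Agilent 1-colour array per sample, 2 parthenogenetic haploid and 2 parthenogenetic diploid ESC lines, from 0.2 ug of labelled RNA per the labels' protocols. The scanner files, made with Agilent Feature Extraction 11.0.1.1 per the file headers, hold background-subtracted, linear intensity. A second table that the authors deposited holds linear intensity brought to nearly 1 distribution in all columns (medians of 28.3 to 28.4) by a method not given in the sources used here. Its ranks followed the scanner values (Spearman correlation across probes of 0.999867 to 0.999944), and its centring stays unknown.

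Control and outlier spots were left out (121 to 168 outliers of 43020 spots per array), repeated spots averaged, and log2 signal minus the array's 75th percentile used. No spot was saturated, and the number of arrays limits the precision. Accessions were matched to RefSeq genes (GRCm38.p6), naming 26043 of 39409 probes (66.1%). Probes well above background on both arrays of a group (21783) were tested with limma 3.58.1 (R 4.3.3, lmFit and eBayes, two-sided, Benjamini-Hochberg over all probes, threshold 0.05). A check on simulated data came first. Its shifts were larger than any member difference and its spread was the same for all probes, so it does not cover smaller differences. In lists, the probe with the highest mean stood for its gene. Named genes were all members, Kcnq1ot1, Igf2, Pou5f1, and of each list those past the threshold and the 3 with the smallest p. Bmp4, Eomes, Ets2, Cdh11, Twist1, Cdkn1b, Cars, Tnfrsf22, Tnfrsf23 and genes below background were named after their values were seen.

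The members and lists were chosen with earlier results of these data known. Samples count as separate lines per the labels, and p-values measure the spread between them. Same-numbered haploid and diploid lines are not said to share an origin, so they were not paired. Alternatives changed background correction, scaling, source table, filter, prior, unit of the fit, floor and arrays. One alternative, filtered normexp, was added after seeing the data. The files hold no mean spot signal, so normexp (offset 50) used the median signal. Python 3.11.15, pandas 2.3.3, numpy 2.4.6 and scipy 1.17.1 were used.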

Additional observations from a re-analysis of the deposited data

How the results depend on the processing

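The number of calls over all probes depended on the processing, while no member was called as reported. Against 35 probes (28 higher and 7 lower in haploid cells), there were 0 with unfiltered normexp, 0 without a filter and 0 with values raised to a floor, where 128, 1987 and 2445 probes had an unadjusted limma p under 0.05. There were 5 with quantile normalization, 4 with the value table, 20 with 1 feature per gene, 88 among probes well above background on all 4 arrays, and 558 with the trend and robust prior. Filtered normexp gave 108. It was added after seeing the data: with every spot kept, the median corrected intensity was 106.5 and 110.3 on the haploid arrays, against 116.3 and 1277 on the diploid arrays, and leaving out 20 spots of diploid replicate 2 gave 153.3 there. With 1 array left out the count ran from 0 to 362: it was 0 when either diploid array was left out (2743 and 1406 probes with an unadjusted limma p under 0.05 without diploid replicates 1 and 2), 303 without haploid replicate 1 and 362 without haploid replicate 2. With the replicate number as a block there were 4 calls (1 higher and 3 lower), and no member was among them; deviations of same-numbered arrays correlated at 0.0552, which gives no sign of pairing.

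Member probes called numbered 0 as reported, 1 with filtered normexp (Cdkn1c), 1 among probes well above background on all 4 arrays (Cdkn1c), 2 with the trend and robust prior (Cdkn1c and Ascl2), and 0 to 2 with 1 array left out, the 2 being Cdkn1c and Slc22a18 without haploid replicate 1. Cdkn1c, Slc22a18, Ascl2, Tssc4, Cd81 and the brighter Nap1l4 probe kept their direction in all 14 alternatives. Unfiltered normexp turned Phlda2 to -0.18, Osbpl5 to -0.18, Dusp8 to -0.71, Peg13 to -0.58, Gata3 to -0.55, Fbln5 to -0.28, Cubn to -0.80, Cd3g to -0.18 and Pou5f1 to 0.40. With 1 array left out Phlda2 ran from -0.41 to 0.48, the dimmer Nap1l4 probe from -0.076 to 0.055 and Pou5f1 from -0.152 to 0.096. Filtered normexp gave 0.001 for the dimmer Nap1l4 probe. The cause was not tested.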

Other observations

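Plagl1, the paternally expressed gene with the smallest p, had 4 probes past the filter that did not move alike. Its brightest probe read 0.31 and 0.15 in haploid cells, against -1.29 and -0.96 in diploid cells, and its next read 0.05 and -0.16 in haploid cells, against -1.72 and -1.31 in diploid cells. These 2 probes differed by 1.36 ± 0.20 (limma adjusted p = 0.0829) and 1.46 ± 0.21 (limma adjusted p = 0.0822). The other 2, dimmer probes differed by 0.20 ± 0.20 and -0.07 ± 0.20, with overlapping groups. All 4 arrays carry maternal chromosomes only, and Plagl1 is expressed from the paternal copy in many tissues.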
